A study of Homo sapiens with 8 samples.

Results

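Glucose uptake and glycolysis were followed through 10 genes, taken in the order of the pathway: *SLC2A1*, *HK2*, *GPI*, *PFKP*, *ALDOA*, *GAPDH*, *PGK1*, *ENO1*, *PKM* and *LDHA*. They were listed by name, with no threshold on a measured value but with earlier results of these data known, and are 10 of the 57815 gene identifiers in the deposited expression tables. Each of the 10 was present in all 8 libraries and passed the expression minimum in every comparison. The RNA came from ABC1 and HCC4006, which are lung adenocarcinoma cell lines without mutations in *KEAP1* or *NRF2*, grown in low-glucose DMEM with 10% fetal bovine serum. Cells received 100 μM DEM or its vehicle DMSO for 16 h, which gave 4 groups of 2 libraries: ABC1 vehicle, ABC1 DEM, HCC4006 vehicle and HCC4006 DEM. DEM, diethyl maleate in the study's methods, is an electrophile that inhibits KEAP1 and thereby stabilises the transcription factor NRF2 (the series title spells the same abbreviation dimethylmaleate). The methods call the 2 libraries of a group biological duplicates, numbered 0 and 1 in the labels, and each line is a single established line.

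Glycolysis splits glucose into pyruvate in the cytosol. A facilitative transporter lets glucose in, hexokinase traps it as a phosphate, phosphofructokinase commits it, the lower steps yield ATP and NADH, and lactate dehydrogenase returns NADH to NAD+ by making lactate. Many tumour cells run this route at a high rate in the presence of oxygen, and several of its genes are known targets of HIF1 and MYC. Glucose 6-phosphate can leave the route for the pentose phosphate pathway, whose oxidative enzymes make NADPH and are known NRF2 targets.

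Levels are given in FPKM, by the study's methods fragments scaled to transcript length and to the library's number of mapped fragments. They can therefore be set beside each other between genes. Whether the libraries were also scaled to each other was not settled. Tests were run with limma on log2(FPKM + 1), over genes whose mean across the libraries compared reached 1 FPKM, and a gene was called at a Benjamini-Hochberg adjusted p under 0.05 over all genes tested. Differences are therefore on the log2(FPKM + 1) scale, which understates the change of genes near 1 FPKM. The files hold no counts, so the depth of a library was not known in absolute terms. The worth of 1 fragment was estimated by the most frequent ratio between low values of the same genes. It lay within 0.959 to 1.10 times that in the ABC1 vehicle library 0, a ratio held by 5.26% to 12.1% of those genes. Summed FPKM differed by at most 1.18-fold between libraries, 12515 to 13573 genes reached 1 FPKM, and log2 values of duplicates correlated with Pearson's r of 0.982 to 0.989 across genes. All 5 NRF2 target genes used as a check of the treatment (*NQO1*, *GCLM*, *TXNRD1*, *HMOX1* and *SRXN1*) were called higher with DEM in each line, with differences of 1.59 to 3.19 in ABC1 and 0.89 to 3.09 in HCC4006. Without an expression minimum all 5 ABC1 calls were lost (limma adjusted p of 0.11 to 0.22), and so was that of *NQO1* in HCC4006 (0.058). The HCC4006 calls held with any 1 library left out, whereas in ABC1 the call of *NQO1* was lost without any 1 of the 4 libraries, those of *GCLM* and *TXNRD1* without vehicle library 0 or 1 and that of *SRXN1* without vehicle library 0, with adjusted p up to 0.284. The 5 epithelial markers all exceeded 1 FPKM in both lines, and their summed level was 4948 to 5799 FPKM under vehicle and 3655 to 4071 FPKM with DEM in ABC1, and 2338 to 2472 against 1983 to 2019 FPKM in HCC4006. *KRT8* and *KRT18* of that list fell with DEM in HCC4006, by 0.46 and 0.40, and each call was lost in 3 of the 4 fits that left out 1 HCC4006 library, with adjusted p up to 0.0756. Of the 4 lung lineage markers, *NKX2-1* and *NAPSA* were expressed in HCC4006 (list sum 57.0 to 63.4 FPKM) and stayed under 1 FPKM in ABC1 (list sum 0.996 to 1.39 FPKM), and *SFTPB* and *SFTPC* were at or near 0 in both. Of 6 matched markers of other cell types, *PTPRC*, *CD3E*, *VWF* and *DCN* were at or near 0, *COL1A1* lay between 3.58 and 7.64 FPKM, and *CD68* was 89.3 to 102 FPKM in HCC4006 against 1.55 to 2.54 FPKM in ABC1.

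The 10 genes spanned a wide range of FPKM within each line, with *GAPDH*, *ALDOA* and *PKM* at the top. Under vehicle, *GAPDH* was highest in ABC1, followed by *ALDOA* and *PKM*, *LDHA*, *ENO1*, *PGK1*, *SLC2A1*, *GPI* and, last, *HK2* and *PFKP*. The libraries of neighbours in that order did not overlap except those of *ALDOA* with *PKM* and of *HK2* with *PFKP*. In HCC4006 under vehicle the first 6 places held the same genes in the same order, again with *ALDOA* and *PKM* overlapping, and *PFKP*, *GPI*, *SLC2A1* and *HK2* followed without overlap. *GAPDH* ranked 20th to 28th of all genes in the 8 libraries, whereas *PFKP* ranked anywhere from 214th to 12449th. Together the 10 genes made up 0.889% to 1.03% of the summed FPKM in the 4 ABC1 libraries and 1.46% to 1.50% in the 4 HCC4006 libraries, so the libraries of the lines did not overlap. In these bulk libraries, fewer expressing cells and less RNA per cell cannot be told apart.

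**Figure D1:**
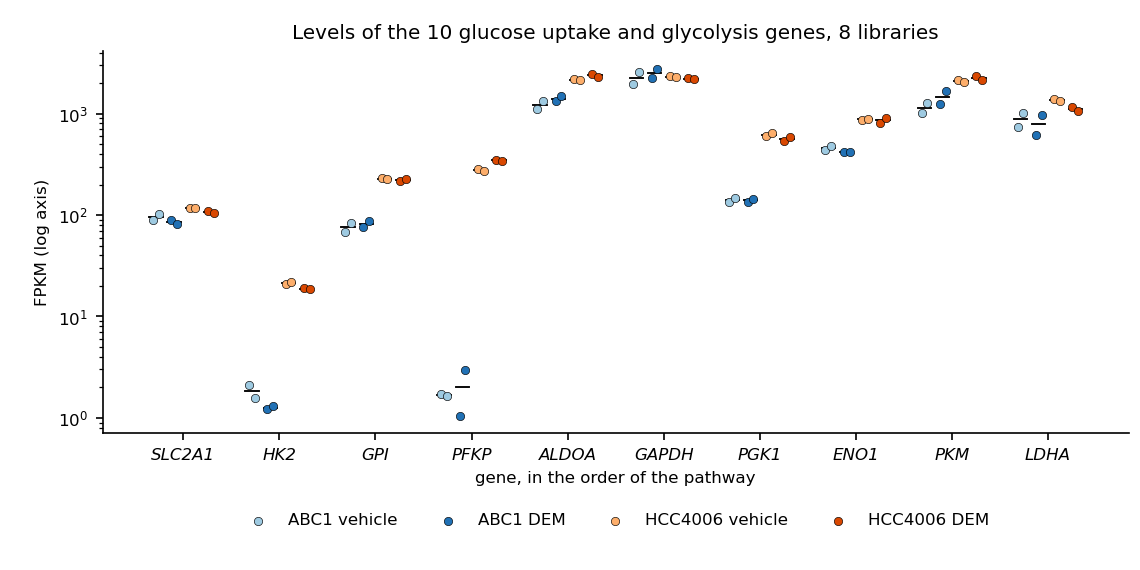
FPKM of the 10 genes (log axis) in the 8 libraries, ordered along the pathway; each point is a library, each black line the mean of the 2 libraries of a group, and colours mark line and treatment. *PFKP* and *HK2* lie between 1.05 and 2.95 FPKM in ABC1, and *PFKP* between 273 and 352 FPKM in HCC4006, while the *GAPDH* libraries of the lines overlap.

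The first comparison asked how the lines differed before treatment. Under vehicle, 9 of the 10 genes were higher in HCC4006 than in ABC1, none was lower, and *GAPDH* was not called. Over all 13747 genes tested, 37.3% were called higher and 30.4% lower in HCC4006. The median difference was 0.90 for the 10 genes and 0.07 over all genes tested. For the same 9 genes both HCC4006 vehicle libraries lay above both ABC1 vehicle libraries, an arrangement found in 45.6% of all genes tested.

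At the entry of glucose, *SLC2A1* (GLUT1, the widespread facilitative glucose transporter, GRCh37 chr1:43391024-43424564, minus strand) measured 89.7 and 101 FPKM in the ABC1 vehicle libraries and 117 FPKM in each HCC4006 vehicle library. The groups did not overlap, but the difference was the smallest of the called ones, 0.29 ± 0.10 (SE, n = 2 per line, limma adjusted p = 0.0433). *HK2* (hexokinase 2, the inducible hexokinase of many tumours, chr2:75061254-75120486, plus strand) measured 2.10 and 1.56 FPKM in ABC1 against 20.9 and 21.9 FPKM in HCC4006. Its mean was 11.7 times higher in HCC4006, a difference of 2.99 ± 0.14 on the log2 scale (limma adjusted p = 4.6e-05). *GPI* (glucose-6-phosphate isomerase, which makes fructose 6-phosphate, chr19:34850385-34893318, plus strand) measured 68.5 and 84.1 FPKM in ABC1 against 229.8 and 226 FPKM in HCC4006, and differed by 1.57 ± 0.12 (limma adjusted p = 0.00024).

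*PFKP* (the platelet type of phosphofructokinase, at the committed step, chr10:3108525-3179910, plus strand) separated the lines most among the 10 genes. It measured 1.71 and 1.64 FPKM in ABC1 and 283 and 273 FPKM in HCC4006. The mean was 166 times higher in HCC4006, and the difference of log2(FPKM + 1) was 6.70 ± 0.09 (limma adjusted p = 4.9e-06). *ALDOA* (aldolase A, which cleaves the phosphorylated hexose, chr16:30075485-30081778, plus strand) measured 1120.2 and 1328 FPKM in ABC1 against 2201 and 2124 FPKM in HCC4006, a difference of 0.83 ± 0.13 (limma adjusted p = 0.0027).

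In the lower pathway, *GAPDH* (the dehydrogenase that yields NADH, chr12:6643678-6647540, plus strand) was the exception. It measured 1968 and 2557 FPKM in ABC1 and 2362 and 2278 FPKM in HCC4006, so that both HCC4006 values lay between the ABC1 duplicates. The difference was 0.05 ± 0.16, with a 95% confidence interval of -0.35 to 0.45 (limma adjusted p = 0.798). *PGK1* (phosphoglycerate kinase, the first ATP-yielding step, chrX:77166236-77384792, plus strand) measured 136 and 147 FPKM in ABC1 against 597 and 647 FPKM in HCC4006. Its mean was 4.39 times higher in HCC4006, a log2 difference of 2.13 ± 0.10 (limma adjusted p = 4.6e-05). *GAPDH* and *PGK1* catalyse consecutive steps, and their difference between the lines was thus 0.05 for the former and 2.13 for the latter.

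*ENO1* (enolase 1, chr1:8921059-8939249, minus strand) measured 440.3 and 485 FPKM in ABC1 against 865 and 892 FPKM in HCC4006, a difference of 0.93 ± 0.10 (limma adjusted p = 0.00076). *PKM* (pyruvate kinase of muscle and tumours, whose splice forms M1 and M2 were summed in these gene-level values, chr15:72491370-72524160, minus strand) measured 1020.4 and 1278 FPKM in ABC1 against 2136 and 2034 FPKM in HCC4006, a difference of 0.87 ± 0.14 (limma adjusted p = 0.0035). *LDHA* (the lactate dehydrogenase subunit that favours lactate, chr11:18416107-18429972, plus strand) measured 744 and 1017 FPKM in ABC1 against 1382 and 1332 FPKM in HCC4006, a difference of 0.64 ± 0.17 (limma adjusted p = 0.020). Leaving out HCC4006 vehicle library 0 or 1 lowered the count of called genes from 9 to 5, and the calls of *SLC2A1*, *ALDOA*, *PKM* and *LDHA* were the ones lost, with adjusted p up to 0.201. *SLC2A1* also lost its call without 1 of the ABC1 vehicle libraries. The differences of *HK2*, *GPI*, *PFKP*, *PGK1* and *ENO1* stayed called with any 1 of the 4 vehicle libraries left out.

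**Figure D2:**
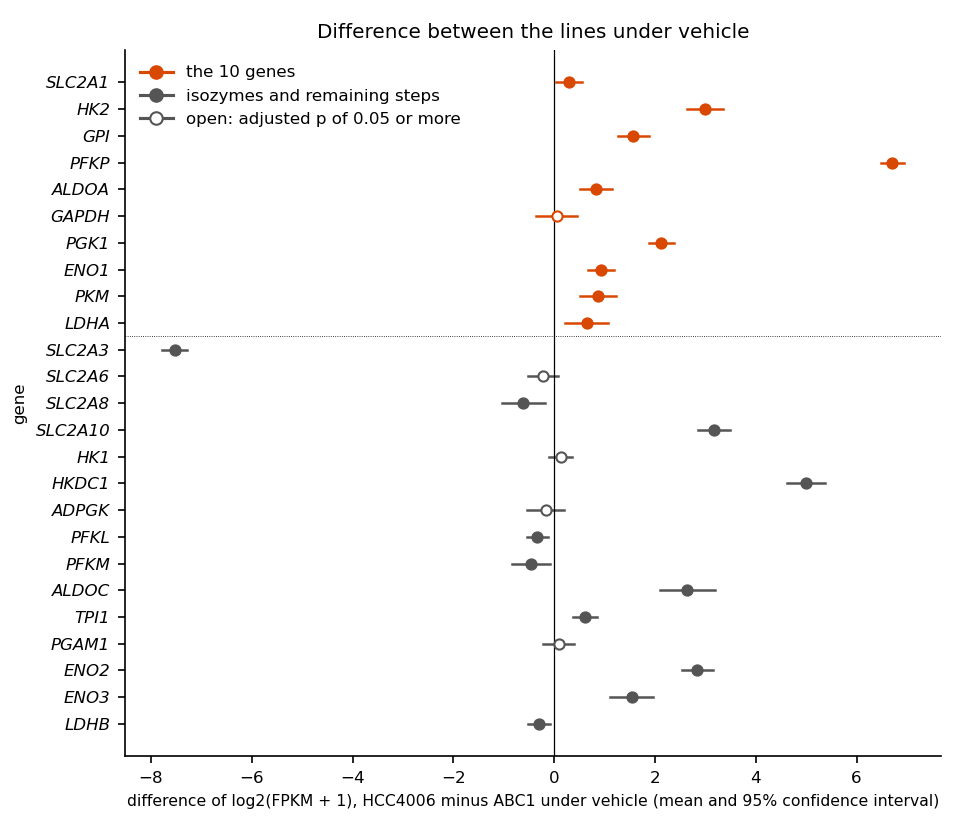
Difference of log2(FPKM + 1) between HCC4006 and ABC1 under vehicle (x axis) for the 10 genes (orange, above the dotted line) and 15 tested isozymes and remaining steps (grey); points are the estimates from 2 libraries per line, bars the 95% confidence intervals, and open points were not called. *PFKP* lies at 6.70 and *SLC2A3* at -7.53, and the interval of *GAPDH* spans 0.

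Most steps can be served by several isozymes. Among those listed, the isozyme with the largest share differed between the lines for glucose transport and phosphofructokinase. Of 15 tested isozymes and remaining steps, 6 were higher and 5 lower in HCC4006 under vehicle, shares near the 37.3% and 30.4% of all genes tested. *SLC2A3* (GLUT3, a high-affinity transporter) measured 209.8 and 201 FPKM in ABC1 and 0.0880 and 0.146 FPKM in HCC4006, a difference of -7.53 ± 0.10 (limma adjusted p = 4.9e-06). It made up 65.8% of the FPKM summed over the 7 listed transporters in ABC1 under vehicle, with *SLC2A1* at 30.6%. Other genes of the transporter family were not in this sum. In HCC4006 *SLC2A1* made up 87.9% and *SLC2A10* (GLUT10) 6.01%, and *SLC2A10* was listed at 0 in both ABC1 vehicle libraries.

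Among the hexokinases, *HK1* was the main isozyme of both lines, at 78.9 and 84.8 FPKM in ABC1 and 91.1 and 87.7 FPKM in HCC4006. *HKDC1* (hexokinase domain containing 1) measured 0.665 and 0.332 FPKM in ABC1 against 45.4 and 47.5 FPKM in HCC4006, a difference of 4.99 ± 0.15 (limma adjusted p = 1.4e-05). *HK1* thus held 97.2% of the hexokinase FPKM in ABC1 and *HK2* 2.19%, whereas HCC4006 divided it into 56.7% *HK1*, 29.5% *HKDC1* and 13.6% *HK2*. Among the phosphofructokinases, *PFKL* (liver type) and *PFKM* (muscle type) were both higher in ABC1, by 0.34 and 0.46 on the log2 scale. They held 62.6% and 35.8% of that step in ABC1 with *PFKP* at 1.57%, whereas *PFKP* held 77.5% in HCC4006. *PFKL* measured 67.9 and 66.1 FPKM in ABC1 and 53.1 and 52.6 FPKM in HCC4006.

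In the remaining steps, *ALDOA*, *GAPDH*, *PGK1*, *ENO1* and *PKM* each held between 97.1% and 100% of their step in every library, so that the member chosen stood for the step. *ALDOC*, *ENO2* and *ENO3* were higher in HCC4006, by 2.64, 2.84 and 1.54, from low levels. *TPI1* (triosephosphate isomerase) was also higher there, by 0.61, and *PGAM1* (phosphoglycerate mutase) was not called. *LDHB*, the subunit that favours pyruvate, was lower in HCC4006, by 0.30, with *LDHA* at 71.8% of the lactate dehydrogenase FPKM in ABC1 and 83.1% in HCC4006. Leaving out 1 of the vehicle libraries, the calls of *PFKL*, *PFKM*, *TPI1*, *LDHB* and *SLC2A8* were lost, with adjusted p up to 0.196.

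**Figure D3:**
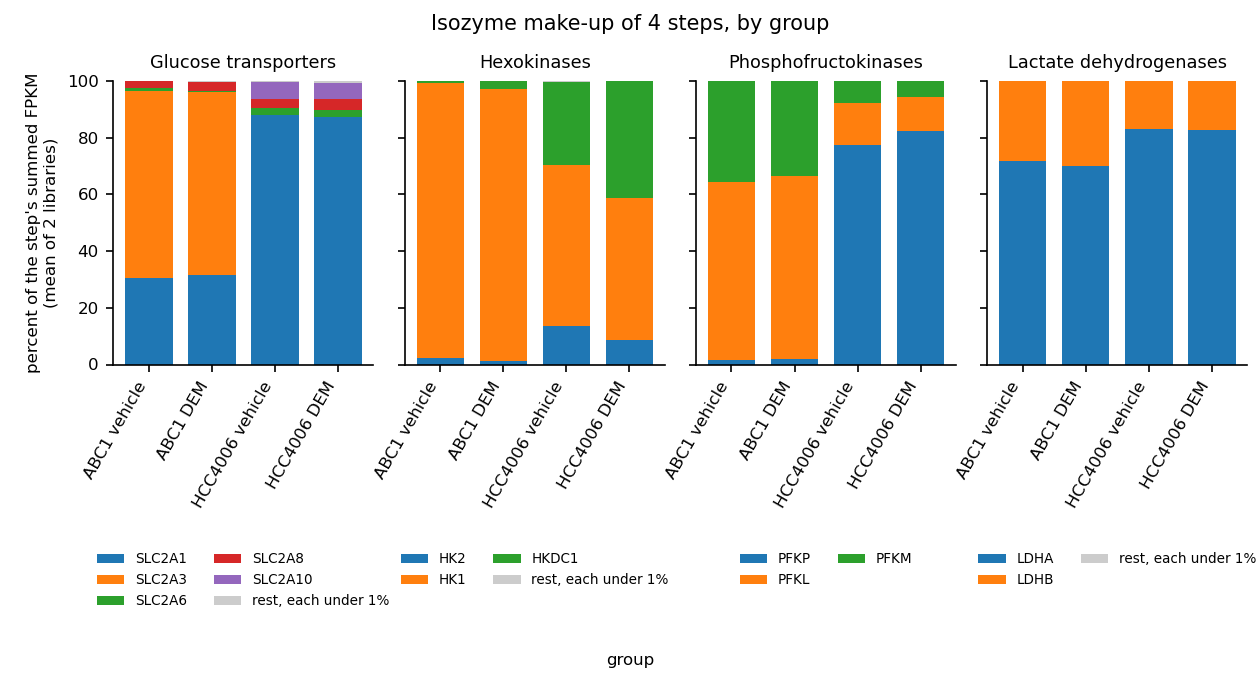
Share of each isozyme in the summed FPKM of the listed genes of its step (y axis, percent, mean of 2 libraries) in the 4 groups. The steps are transporters, hexokinases, phosphofructokinases and lactate dehydrogenases. *SLC2A3* fills 65.8% of the transporter bar in ABC1 under vehicle and *SLC2A1* 87.9% in HCC4006, and *PFKP* fills 1.57% and 77.5% of the phosphofructokinase bars.

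The promoters of the members that separated the lines most or were called with DEM are shown so that their letters can be set beside the values. They are the 250 bases before the RefSeq start of each gene (RefSeq table of GRCh38.p14), placed on GRCh37 by an exact match of the sequence. Capitals mark the searched motifs: the HIF core ACGTG or GCGTG and the E-box CACGTG of MYC and MLX factors, on either strand, so that an E-box always holds an ACGTG on each strand. *PFKP* lies at chr10:3109912-3110161 and *LDHA* at chr11:18415860-18416109, *PGK1* at chrX:77359495-77359744 and *HK2* at chr2:75061004-75061253, all on the plus strand.
LDHA: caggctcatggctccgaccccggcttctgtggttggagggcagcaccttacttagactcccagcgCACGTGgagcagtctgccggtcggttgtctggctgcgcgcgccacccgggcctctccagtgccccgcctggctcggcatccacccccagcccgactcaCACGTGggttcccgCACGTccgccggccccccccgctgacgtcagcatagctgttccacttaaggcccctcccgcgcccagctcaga
PFKP: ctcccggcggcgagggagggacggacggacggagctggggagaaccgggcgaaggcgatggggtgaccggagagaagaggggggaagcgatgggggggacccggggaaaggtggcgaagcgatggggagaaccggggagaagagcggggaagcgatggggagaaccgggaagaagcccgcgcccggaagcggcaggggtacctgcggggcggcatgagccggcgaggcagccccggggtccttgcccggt
PGK1: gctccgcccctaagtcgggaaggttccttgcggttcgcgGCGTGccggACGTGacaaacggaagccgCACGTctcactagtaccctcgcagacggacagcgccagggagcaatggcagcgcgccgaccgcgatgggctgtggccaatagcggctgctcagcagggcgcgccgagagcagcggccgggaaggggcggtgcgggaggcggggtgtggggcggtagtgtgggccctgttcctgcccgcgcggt
HK2: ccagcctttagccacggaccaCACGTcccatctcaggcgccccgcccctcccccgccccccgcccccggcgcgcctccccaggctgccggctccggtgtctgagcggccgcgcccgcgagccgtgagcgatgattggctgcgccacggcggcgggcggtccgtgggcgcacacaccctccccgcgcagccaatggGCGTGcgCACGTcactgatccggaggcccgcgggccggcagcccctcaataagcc
*LDHA* held 5 ACGTG matches on the 2 strands, 4 of them within its 2 E-boxes, *PGK1* and *HK2* held 2 ACGTG and 1 GCGTG each, and *PFKP* held none of these letters in the window. Of the 10 genes, 6 held ACGTG and 3 GCGTG in this window, against 18.5% and 32.2% of the 35116 promoters of the table. Either core was found in 7 of 10 genes and in 43.2% of all promoters, and *SLC2A1*, *PFKP* and *PKM* held neither. The E-box was found in *GAPDH* and *LDHA* (6.35% of all promoters). The antioxidant response element core TGACNNNGC, the motif of NRF2, was found in *GAPDH*, where it overlaps the E-box, and in *PKM* (10.9% of all promoters). These matches describe letters, and no binding was measured here.

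The main comparison asked what DEM did to the pathway in each line. In HCC4006, *PFKP* rose and *LDHA* fell, to 1.24 and 0.823 times their vehicle means, and the other 8 genes were not called. Over all 13542 genes tested in HCC4006, 8.45% were called higher and 10.7% lower with DEM, so 1 call in each direction among 10 genes was near the background. The median difference was -0.05 for the 10 genes and -0.03 over all genes tested. *PFKP* measured 283 and 273 FPKM under vehicle and 352 and 338 FPKM with DEM. Both DEM libraries lay above both vehicle libraries, the mean ratio was 1.24, and the difference was 0.31 ± 0.06 (95% confidence interval 0.16 to 0.46, limma adjusted p = 0.0233). *LDHA* measured 1382 and 1332 FPKM under vehicle and 1164 and 1069 FPKM with DEM. Both DEM libraries lay below both vehicle libraries, the mean ratio was 0.823, and the difference was -0.28 ± 0.07 (95% confidence interval -0.45 to -0.12, limma adjusted p = 0.0372). Leaving out any 1 of the 4 HCC4006 libraries ended both calls, with adjusted p of 0.0611 to 0.135 for *PFKP* and 0.0705 to 0.171 for *LDHA*, while the differences kept their direction at 0.28 to 0.34 and -0.34 to -0.22. Both calls were also lost without an expression minimum (adjusted p = 0.107 and 0.253) and in a model of all 8 libraries.

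The other 8 genes gave differences between -0.17 and 0.15 in HCC4006, with adjusted p of 0.166 to 0.794. *SLC2A1* measured 110.2 and 105 FPKM with DEM, below both vehicle values, with a difference of -0.12 ± 0.07 (95% confidence interval -0.28 to 0.04, limma adjusted p = 0.235). *HK2* measured 18.9 and 18.8 FPKM with DEM, also below both vehicle values, with a difference of -0.17 ± 0.08 (-0.38 to 0.03, limma adjusted p = 0.195). These 2 genes therefore gave small differences below 0 that did not pass the test, while *HK1* and *HKDC1* were called higher at the hexokinase step. *GPI* measured 218 and 227 FPKM with DEM, overlapping its vehicle values, and *ALDOA* 2483 and 2302 FPKM, above both of them with a difference of 0.15 ± 0.07 (-0.01 to 0.30, limma adjusted p = 0.166). *GAPDH* measured 2239 and 2202 FPKM with DEM and *PGK1* 534 and 592 FPKM, each below both vehicle values, with differences of -0.06 ± 0.06 and -0.14 ± 0.08. *ENO1* measured 809.8 and 913 FPKM with DEM, on either side of its vehicle values, and *PKM* 2335 and 2168 FPKM, above them with a difference of 0.11 ± 0.07. Counted over the 10 genes, the DEM libraries lay wholly above the vehicle libraries for 3 and wholly below for 5, an arrangement found in 29.3% and 35.3% of all genes tested.

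In ABC1 none of the 10 genes was called with DEM by limma, and none had an unadjusted p under 0.05. Over all 12635 genes tested in ABC1, 0.768% were called higher and 0.435% lower, so a count of 0 in 10 was near the background. With every library scaled to the same summed FPKM, 110 genes were called higher and 97 lower in place of 97 and 55. The differences ranged from -0.32 for *HK2* to 0.33 for *PKM*, with a median of 0.03 against -0.02 over all genes tested, and adjusted p of 0.423 to 0.936. With 1 library left out, the difference ranged from -0.46 without vehicle library 1 to -0.18 without vehicle library 0 for *HK2*, and from 0.11 without DEM library 1 to 0.54 without DEM library 0 for *PKM*. The smallest difference called among all genes in ABC1 was 0.80, against 0.22 in HCC4006, and no interval of the 10 genes in ABC1 excluded 0.

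*PKM* measured 1020.4 and 1278 FPKM under vehicle and 1234 and 1665 FPKM with DEM, overlapping, with a difference of 0.33 ± 0.22 (95% confidence interval -0.20 to 0.86). With the replicate number as a block, *PKM* was called higher in ABC1 (limma adjusted p = 0.030), 1 of 2348 genes called there. The labels do not say that a number marks a shared batch. *HK2* measured 2.10 and 1.56 FPKM under vehicle and 1.22 and 1.30 FPKM with DEM, without overlap but near the expression minimum, with a difference of -0.32 ± 0.22 (-0.86 to 0.22). *PFKP* measured 1.71 and 1.64 FPKM under vehicle and 1.05 and 2.95 FPKM with DEM, and the spread of the DEM duplicates gave the widest interval of the 10, -0.75 to 0.93. Among the remaining genes only *SLC2A1* (88.4 and 82.5 FPKM with DEM) and *ENO1* (421 and 418 FPKM) lay wholly below their vehicle values, with differences of -0.16 ± 0.13 and -0.14 ± 0.13. *LDHA* measured 615 and 971 FPKM with DEM, *GAPDH* 2269.6 and 2777 FPKM, *ALDOA* 1319 and 1479.7 FPKM, *GPI* 75.4 and 86.5 FPKM and *PGK1* 133 and 146 FPKM, each overlapping its vehicle libraries. Wholly lower values were thus found for 3 genes and wholly higher ones for 0, against 28.2% and 25.5% of all genes tested. Library 1 exceeded library 0 for 8 of the 10 genes in each ABC1 group, and the summed FPKM of the 10 genes was 1.25 times as high in library 1 as in library 0 under vehicle and 1.24 times as high with DEM. In HCC4006 the same ratios were 0.976 and 0.968. The most frequent ratio of low values to the ABC1 vehicle library 0 was 1.10 in vehicle library 1 and 1.09 in DEM library 1 of ABC1. Only 10.5% and 12.1% of the low genes compared held these ratios, so they are a rough estimate of the worth of a fragment.

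**Figure D4:**
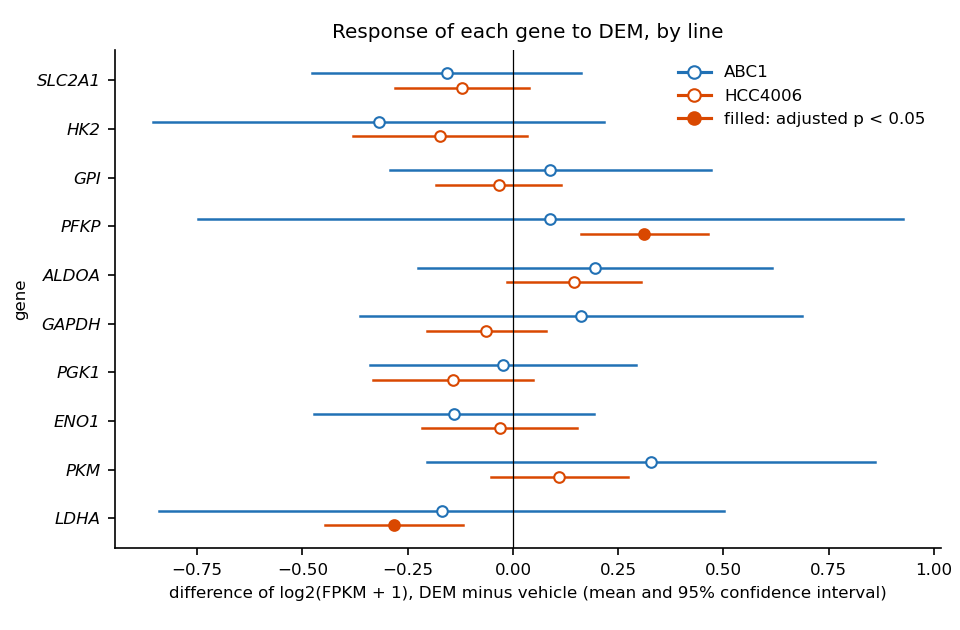
Difference of log2(FPKM + 1) between DEM and vehicle (x axis) for the 10 genes in ABC1 (blue) and HCC4006 (orange); points are estimates from 2 libraries per group, bars 95% confidence intervals, and filled points passed an adjusted p of 0.05. Filled points are seen for *PFKP* (0.31) and *LDHA* (-0.28) in HCC4006, and all 10 ABC1 intervals span 0.

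The difference between the responses was tested by the interaction of line and treatment. None of the 10 genes was called by limma, with no unadjusted p under 0.05, against 0.307% of 13682 genes called with a higher and 0.329% with a lower response in HCC4006. The differences of response ranged from -0.23 for *GAPDH* to 0.22 for *PFKP*, with adjusted p of 0.713 to 0.934. For *PFKP* the 95% confidence interval was -0.64 to 1.09 and for *LDHA* -0.86 to 0.64, so the calls made in HCC4006 were not shown to be particular to that line.

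The hexokinases other than *HK2* were called higher with DEM in HCC4006. *HKDC1* rose from 45.4 and 47.5 FPKM to 89.8 and 93.2 FPKM, with a difference of 0.96 ± 0.07 (limma adjusted p = 0.0016), and remained called with any 1 HCC4006 library left out. *HK1* was called higher, at 110.5 and 111 FPKM with DEM and a difference of 0.31 ± 0.06 (limma adjusted p = 0.0273). With *HK2* at a difference of -0.17, the share of *HKDC1* in hexokinase FPKM was 28.8% and 30.1% under vehicle and 41.0% and 41.7% with DEM, while that of *HK2* was 13.3% and 13.9% under vehicle and 8.41% and 8.62% with DEM. These shares did not overlap, and with 2 libraries a group an exact two-sided permutation test cannot go below p = 0.333. In ABC1 *HKDC1* measured 2.90 and 3.20 FPKM with DEM, a difference of 1.44 ± 0.23 that did not pass the test (limma adjusted p = 0.0564), and the responses of the lines were not called different (limma adjusted p = 0.268).

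Of 14 tested isozymes and remaining steps, 3 were called higher and 1 lower in HCC4006 (8.45% and 10.7% of all genes tested there), with a median of -0.11, and none of 13 was called in ABC1. Beside *HK1* and *HKDC1*, *ENO3* (the muscle enolase) was called higher, at 5.37 and 4.01 FPKM under vehicle and 7.98 and 7.38 FPKM with DEM. *PGAM1*, which acts between *PGK1* and *ENO1*, was called lower, from 72.8 and 71.8 FPKM to 59.5 and 55.8 FPKM, a difference of -0.32 ± 0.07 (limma adjusted p = 0.0319). *LDHB* gave a difference of -0.23 ± 0.08 (limma adjusted p = 0.0944), close to that of *LDHA*, and the *LDHA* share of the step was 81.1% and 84.1% with DEM against 82.5% and 83.8% under vehicle. In HCC4006 *PFKP* held 82.3% and 82.8% of the phosphofructokinase FPKM with DEM against 76.9% and 78.1% under vehicle, with *PFKL* and *PFKM* at differences of -0.09 and -0.22 that were not called. The calls of *HK1* and *PGAM1* ended without any 1 of the 4 HCC4006 libraries, and that of *ENO3* in 3 of these 4 fits. The differences kept their direction, at 0.28 to 0.34 for *HK1*, -0.37 to -0.28 for *PGAM1* and 0.45 to 0.79 for *ENO3*. Without an expression minimum these calls were also lost (limma adjusted p = 0.0760, 0.105 and 0.219). In ABC1 the largest differences among the isozymes were those of *HKDC1* and of *SLC2A6* (GLUT6), which measured 3.92 and 3.76 FPKM under vehicle and 1.45 and 0.997 FPKM with DEM (limma adjusted p = 0.0662).

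Among the enzymes that set the flux of the route, *PFKFB3*, which makes an allosteric activator of phosphofructokinase, fell in HCC4006 from 87.0 and 84.9 FPKM to 57.6 and 51.4 FPKM, a difference of -0.65 ± 0.08 (limma adjusted p = 0.0070). It was the only call among 9 tested switches in HCC4006, a share near the 10.7% of all genes called lower, against 0 of 9 in ABC1, where it measured 10.2 and 9.13 FPKM under vehicle and 9.13 and 9.54 FPKM with DEM. The difference between these responses was not called (limma adjusted p = 0.124). Without an expression minimum the HCC4006 call of *PFKFB3* was lost (limma adjusted p = 0.0879). Under vehicle the lines differed in *PFKFB3* by 3.03, in *PFKFB2* by 0.73 (not called without HCC4006 vehicle library 1, adjusted p = 0.0544), in *PDK3* by 1.29 and in *PDK2* by -0.84, the PDK enzymes being kinases that switch off pyruvate dehydrogenase.

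For pyruvate and lactate, 1 of 10 tested genes was called with DEM in HCC4006, near the 8.45% of all genes called higher, and 0 of 11 in ABC1. The called gene was *MPC1*, a subunit of the mitochondrial pyruvate carrier, which rose from 42.9 and 49.1 FPKM to 63.0 and 68.3 FPKM in HCC4006 (difference 0.51 ± 0.09, limma adjusted p = 0.0196). Under vehicle the lines differed in lactate carriers. *SLC16A1* (MCT1) measured 49.3 and 62.1 FPKM in ABC1 and 0.709 and 0.734 FPKM in HCC4006, whereas *SLC16A3* (MCT4, known for lactate export) measured 11.7 and 12.3 FPKM in ABC1 and 88.6 and 87.5 FPKM in HCC4006. *PDHX*, a component of the pyruvate dehydrogenase complex, was higher by 3.74 in HCC4006 and *MPC2* differed by -1.16.

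In the reverse direction, *FBP1*, the gluconeogenic phosphatase that opposes phosphofructokinase, fell in HCC4006 from 82.9 and 82.2 FPKM to 47.4 and 51.2 FPKM (difference -0.73 ± 0.07, limma adjusted p = 0.0038), and it was at or below 0.147 FPKM in all 4 ABC1 libraries. *PCK2*, the mitochondrial phosphoenolpyruvate carboxykinase, was called higher in both lines. It measured 4.40 and 4.18 FPKM under vehicle and 13.1 and 14.0 FPKM with DEM in ABC1 (difference 1.46 ± 0.14, limma adjusted p = 0.0221) and gave a difference of 0.59 ± 0.13 in HCC4006 (limma adjusted p = 0.0324). *PC*, pyruvate carboxylase, was called higher in HCC4006 by 0.38. Without an expression minimum the HCC4006 calls of *FBP1*, *PCK2* and *PC* were lost (limma adjusted p = 0.0557, 0.220 and 0.196). The ABC1 call of *PCK2* was lost as well (limma adjusted p = 0.110). Altogether 2 of 4 tested genes of gluconeogenesis were called higher and 1 lower in HCC4006, and 1 of 3 higher in ABC1. Of 7 tested glycogen genes in HCC4006, *GBE1* (branching enzyme, 0.98) and *PYGB* (phosphorylase, 0.30) were called higher, 5 of the 7 lay below 0 with a median of -0.06, and 0 of 6 were called in ABC1. Over all genes tested in HCC4006, 8.45% were called higher and 10.7% lower, and in ABC1 0.768% and 0.435%. Under vehicle *GYS1*, glycogen synthase, differed by -2.67 between the lines and *PGM1*, phosphoglucomutase, by 3.89, with *PYGB* at 2.63.

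The pentose phosphate pathway, which draws on glucose 6-phosphate, gave calls in both directions with DEM in HCC4006. *PGD*, the phosphogluconate dehydrogenase of its oxidative branch, rose from 187 and 191 FPKM to 363 and 370.0 FPKM (difference 0.95 ± 0.06, limma adjusted p = 0.0010). *TKT* and *TALDO1*, which return carbon to glycolysis, rose by 0.70 and 0.77, and the calls of *PGD*, *TKT* and *TALDO1* held with any 1 HCC4006 library left out. *RPE*, the ribulose phosphate epimerase, was called lower, with a difference of -0.56. Without an expression minimum the HCC4006 calls of *PGD* and *TALDO1* held. Those of *TKT* and *RPE* were lost (limma adjusted p = 0.105 and 0.136). The shares of all genes tested there were 8.45% called higher and 10.7% called lower. In ABC1, where 0.768% of all genes tested were called higher and 0.435% lower, none of these 4 genes was called. *TALDO1* gave a difference of 0.04 ± 0.12 there. The responses of *TALDO1* differed by 0.73 ± 0.12 between the lines, which did not pass the test (limma adjusted p = 0.0535). None of the 4 genes was called for a difference between the responses. Under vehicle *TKT* and *TALDO1* were higher in ABC1 (differences of -1.15 and -0.66), and *RPIA* too (-1.20), whereas *RPE* was higher in HCC4006 (0.84). Of 7 tested genes of the pathway, 4 were called lower and 1 higher in HCC4006, against 30.4% and 37.3% of all genes tested. The *RPE* difference ranged from 0.66 to 1.02 with 1 vehicle library left out, and its call did not hold in every such fit. The *TKT* call was lost without HCC4006 vehicle library 0 or 1 and that of *RPIA* without library 1, with adjusted p up to 0.0774.

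Regulators of the pathway and targets of HIF outside glycolysis were listed to set the 10 genes beside them. Of 16 tested HIF targets, 11 were higher and 0 lower in HCC4006 under vehicle, against 37.3% and 30.4% of all genes tested, among them *P4HA2* (collagen prolyl hydroxylase, 2.59), *ERO1A* (1.53), *MXI1* (1.45) and *NDRG1* (1.34). *VEGFA*, also among the 11, lost its call without ABC1 vehicle library 0 and without HCC4006 vehicle library 0 or 1, with adjusted p up to 0.142. With DEM, 2 of 15 were called higher in ABC1, namely *VEGFA* (the angiogenic growth factor) and *P4HA2*, against 0.768% of all genes tested there. *VEGFA* measured 53.8 and 55.5 FPKM under vehicle and 159.7 and 159 FPKM with DEM in ABC1, a difference of 1.53 ± 0.12 (limma adjusted p = 0.0153). *P4HA2* measured 15.4 and 15.2 FPKM under vehicle and 42.2 and 43.7 FPKM with DEM there, a difference of 1.43 ± 0.12 (limma adjusted p = 0.0183). In HCC4006 *VEGFA* was called higher by 0.35 and *KDM3A*, a histone demethylase, by 0.63, 2 of 16 tested, beside 8.45% of all genes. None of the 10 genes was called in ABC1, a count near the background of all genes there. The median difference of the HIF targets was 0.28 in ABC1 and 0.07 in HCC4006.

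Among the regulators, *HIF1A* (0.36 ± 0.09), *MYC* (0.67 ± 0.10) and *ARRDC4* (0.83 ± 0.11), an arrestin known to restrain glucose uptake, were called higher with DEM in HCC4006, 3 of 9 tested beside 8.45% of all genes, against 0 of 8 in ABC1. *MYC* measured 25.2 and 22.2 FPKM under vehicle and 40.1 and 36.2 FPKM with DEM in HCC4006, and 32.7 and 27.7 FPKM against 46.6 and 49.2 FPKM in ABC1, where its difference of 0.65 ± 0.14 was not called (limma adjusted p = 0.0802). Under vehicle *EPAS1* (HIF2 alpha) and *VHL*, which marks HIF for degradation, were higher in ABC1 (differences of -1.44 and -1.37), and *MLXIP* (MondoA, a glucose-sensing factor), *ARRDC4* and *HIF1A* were higher in HCC4006 (1.58, 2.47 and 0.81). The *HIF1A* call was lost without HCC4006 vehicle library 0 or 1, with adjusted p up to 0.0744. Transcript levels of these factors do not show their activity. *VEGFA*, *KDM3A*, *MPC1*, *RPE*, *HIF1A*, *MYC*, *KRT8* and *KRT18* were named after their values were seen, to complete the counts. Leaving out 1 HCC4006 library ended the calls of *VEGFA*, *KDM3A*, *HIF1A*, *MYC*, *ARRDC4*, *MPC1*, *RPE*, *PCK2*, *PC* and *PYGB* there for at least 1 of the 4 libraries, with adjusted p up to 0.214, and leaving out ABC1 vehicle library 0 or 1 ended those of *VEGFA*, *P4HA2* and *PCK2* in ABC1, as did leaving out DEM library 1 for *PCK2*, with adjusted p up to 0.194.

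**Figure D5:**
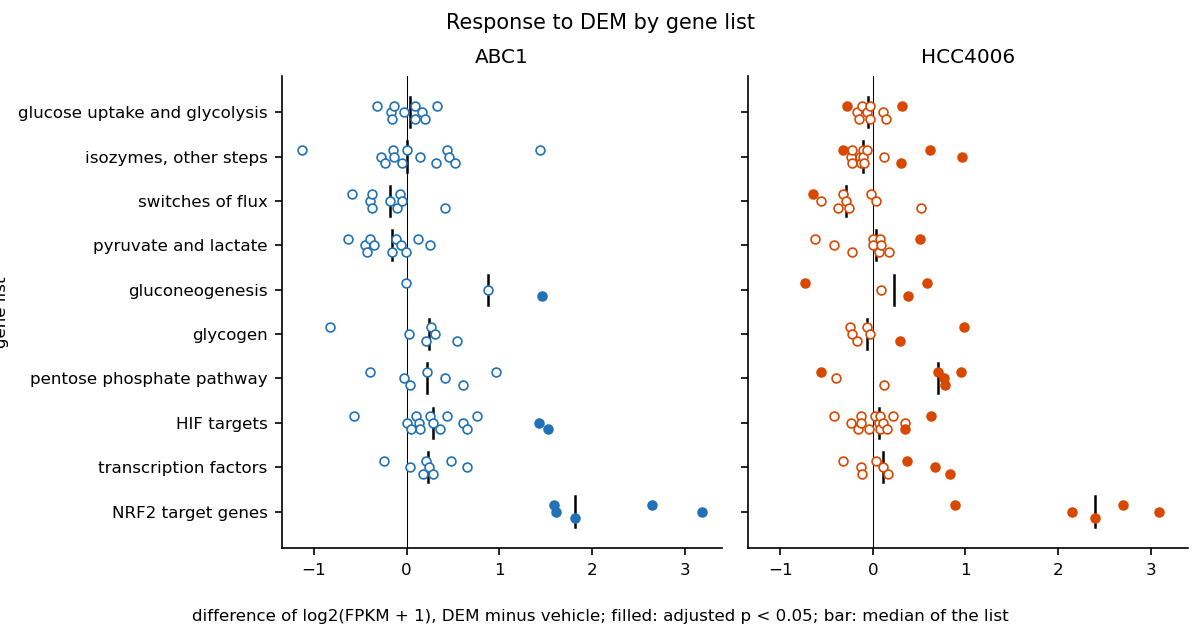
Difference of log2(FPKM + 1) between DEM and vehicle (x axis) for each tested gene of 10 gene lists (rows) in ABC1 and HCC4006; each point is a gene, filled points passed an adjusted p of 0.05, and black bars are list medians. The points of the 10 glucose uptake and glycolysis genes lie between -0.32 and 0.33 in both lines, and the NRF2 target genes between 0.89 and 3.19.

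Within a line, the 10 genes were compared with each other and with their mean, without a reference from other sets of genes. With log2(FPKM + 1) centred within each line, Pearson's r over the 8 libraries ranged from -0.854 to 0.972 over the 45 pairs of the 10 genes, with a median of 0.348 and 33 pairs above 0. Among 6047 other genes with at least 10 FPKM in both lines, those most like the mean of the 10 were *RPLP0* (a ribosomal protein gene, r = 0.992), *CDH1* (the epithelial cadherin, r = 0.990) and *TRUB1* (a pseudouridine synthase, r = 0.990). These correlations describe 8 libraries of 2 lines that share their scaling, and the named genes are the highest of the 6047 compared. The centred mean of the 10 genes in ABC1 was -0.093 and 0.088 in vehicle libraries 0 and 1. With DEM it was -0.135 and 0.141 there, against -0.020 to 0.018 over the HCC4006 libraries. The correlations with that mean therefore reflect mainly the difference between the ABC1 libraries numbered 0 and 1. Processed copies could take fragments from some of the genes: 64 *GAPDH* pseudogenes were listed, the highest at 10.4 FPKM, and together they came to 0.566% to 0.777% of the *GAPDH* step. The pseudogenes of *LDHA*, *ALDOA*, *ENO1*, *PKM*, *PGK1* and *HK2* reached at most 1.93 FPKM.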

How the data were processed

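Poly(A)-selected, strand-specific libraries of total RNA from ABC1 and HCC4006 cells (4 groups of 2) were sequenced as paired-end reads. The deposited values are FPKM per gene, made by the authors with Cufflinks tools on hg19/GRCh37. The submitters' processing notes name STAR 2.5.3a and Cuffnorm, whereas the study's methods name TopHat and Cufflinks. Neither the aligner of these tables nor their scaling between libraries was therefore settled. Tables holding the authors' own comparisons (fold changes and p-values made from counts) were not used. Identifiers were paired with symbols and positions through GENCODE v44 lifted to GRCh37, and 127 of 129 listed symbols matched.

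With limma 3.58.1 in R 4.3.3, log2(FPKM + 1) was fitted with 1 mean per group, moderated with a mean-variance trend, for genes whose mean reached 1 FPKM. Each comparison used only its own libraries, and the interaction used all 8. Benjamini-Hochberg adjustment covered all genes tested (threshold 0.05). The analysis was tested on simulated data. The 10 genes and all lists were chosen with earlier results of these data known. Named besides the 10 were isozymes of at least 1 FPKM in either line, up to 4 called genes per further list with the smallest adjusted p, *PGD*, *TKT*, *TALDO1* and the 5 NRF2 target genes. An item of the further lists is not reported here. The 3 genes most like the mean of the 10 were taken among genes of at least 10 FPKM in both lines. Pseudogenes were rows named by the symbol, P and digits. Alternatives were a pseudocount of 0.1, no or a higher expression minimum, other scalings, no trend, a replicate block, a model of all libraries, and leaving out each library. Figures were drawn with matplotlib 3.10.9.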

Additional observations from a re-analysis of the deposited data

Results flagged for a closer look

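Among the genes named, the response to DEM differed between the lines, by the interaction of line and treatment, for *VEGFA* (HCC4006 response minus ABC1 response -1.18 ± 0.14 SE, limma adjusted p = 0.0232) and *P4HA2* (-1.27 ± 0.12, limma adjusted p = 0.0172), and both differences mean a smaller rise in HCC4006. The *VEGFA* call was lost in all 8 fits that left out a library (adjusted p 0.0504 to 0.154) and the *P4HA2* call in 4 of 8 (0.0256 to 0.122). None of the 10 glucose uptake and glycolysis genes was called for such a difference. The smallest difference of response called among all genes was 0.83 in absolute size. Groups of 2 libraries are too small for a test of single outlying libraries.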

How the results depend on the processing

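The count of the 10 genes called with DEM in HCC4006 was 2 and became 0 without an expression minimum, without the mean-variance trend, in a model of all 8 libraries, and with each library left out (0 to 0). The count called between the lines was 9 and became 5 without an expression minimum, and 5 to 9 with a library left out. The cause was not tested. Among the 10 genes and the others followed, 22 of 30 DEM calls in HCC4006 were lost without an expression minimum, and 8 of 8 in ABC1. Of 508 recomputed values of the 10 genes, 458 kept direction and call, 29 lost the call, 1 gained it and 20 changed sign, the last among values that had not been called. With each library left out in turn, the DEM difference in ABC1 ranged from -0.057 to 0.23 for *GPI*, -0.39 to 0.56 for *PFKP*, -0.027 to 0.35 for *GAPDH*, -0.087 to 0.040 for *PGK1* and -0.50 to 0.16 for *LDHA*. In HCC4006 it ranged from -0.12 to 0.055 for *ENO1*, which was 0.00054 with median-of-ratios scaling. The difference between the lines ranged from -0.14 to 0.24 for *GAPDH*, and that between the responses from -0.050 to 0.12 for *SLC2A1*, -0.27 to 0.023 for *GPI*, -0.25 to 0.70 for *PFKP*, -0.17 to 0.072 for *ALDOA* and -0.44 to 0.22 for *LDHA*. Of 1022 recomputed values of the other named genes, none changed sign and 159 lost the call.

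Over all genes, the 152 calls in ABC1 became 0 without an expression minimum (2771 genes had an unadjusted p under 0.05), 33 without the trend, 231 with a minimum of 5 FPKM, 254 with median-of-ratios scaling, 1567 in a model of all libraries and 18 to 69 with a library left out. The 2591 calls in HCC4006 became 370 without a minimum and 634 to 1028 with a library left out, the 9305 calls between the lines as few as 5572, and the 87 calls between the responses 20 with a pseudocount of 0.1, 46 after scaling to the same summed FPKM, 403 without a minimum and 4 to 41 with a library left out. A library left alone in its group was assumed to vary like the others. Adding pseudogenes to a step lowered the *GAPDH* share to group means of 99.3% to 99.4%, and to 99.2% in the lowest library.

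The replicate numbers were not taken to pair the samples, since nothing in the labels says that a number marks a shared batch and each line has only 2 pairs, although deviations of same-numbered libraries correlated with r = 0.258 in ABC1 and 0.054 in HCC4006. With a replicate block, 1 of the 10 genes was called in ABC1 (*PKM*, 0.33, limma adjusted p = 0.030), 2 in HCC4006, 8 between the lines and 0 between the responses, and the block called 2348, 3304, 9394 and 3 genes over all genes in these comparisons. Depth limits the low genes: *HK2* and *PFKP* in ABC1 lie near 1 FPKM, where the deposited values do not give the number of fragments.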
